A study of Mus musculus with 18 samples.

Results

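Cytosolic ribosomal protein genes were read from RNA sequencing of 4T1, a mouse mammary carcinoma cell line, and of 2 drug-selected populations derived from it. The genes were chosen by symbol and by level. A row of the count table was taken if its symbol has the form of a large-subunit (Rpl) or small-subunit (Rps) protein, kinases of the Rps6k family were left out, and at least 100 counts were required in each of 18 libraries. Of 24421 genes listed, 87 had such a symbol and 77 met the floor, 46 named for the large subunit and 31 for the small subunit. The floor selected the genes on their counts, so that their high level is no finding.

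The ribosome translates mRNA. Its small subunit binds and decodes the mRNA, and its large subunit joins amino acids into the chain. Each subunit is a core of ribosomal RNA coated by proteins that are made in the cytosol, carried to the nucleolus and assembled there at matched amounts. The mRNAs of these proteins are among the most abundant of a growing cell. They begin with a stretch of pyrimidines, the 5′ terminal oligopyrimidine (TOP) motif, through which the kinase mTOR and the RNA-binding protein LARP1 set their translation. Free RPL5 and RPL11 bind MDM2, which ties ribosome assembly to p53.

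The 6 groups were untreated 4T1, 4T1 exposed to 17-DMAG, and the same pair for 4T1R1 and for 4T1R2, with 3 libraries each. 17-DMAG is a benzoquinone inhibitor of the chaperone HSP90, and 4T1R1 and 4T1R2 are populations of 4T1 that were selected separately with it, so each stands for 1 selection. The dose was 1.5 µM in every treated group. The sample records give 48 h of exposure and the description of the series gives 2 h, so the time is not settled here. All cells share the 4T1 background, whose strain the labels give as BALB/cfC3H, and untreated 4T1 is the sole unselected control. The study's text calls the libraries of a group biological triplicates, while the labels do not say that they came from separate cultures. The p-values measure the spread between these libraries.

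Libraries held 23354461 to 55094630 counts, of which the ribosomal RNA precursor Rn45s, left after depletion of ribosomal RNA, took 9.54% to 15.6%. In 4T1 with 17-DMAG, the counts of replicates 1 and 2 were closer to each other than those of any other pair within a group. Their chi-square per gene was 1.10, against 2.04 to 2.22 in the other 17 pairs, where sampling of single counts alone gives about 1. The 2 libraries held 28493864 and 55094630 counts. For this closeness they were averaged and counted as 1 sample, so n = 2 in that group, n = 3 in the others and 17 samples entered the fit. The library names of 4T1R1 belong to another run of numbers than those of 4T1 and 4T1R2, and an effect of these 2 runs and a difference between 4T1R1 and either population cannot be told apart. Of 7 epithelial markers, Krt8 stood at 510 to 770 CPM (counts scaled to a common library size), while Krt14 ran from 2.45 to 13.5 and Cldn4 from 3.48 to 31.8. Their sum was 2037 to 2061 CPM in untreated 4T1, 1776 to 1795 in treated 4T1, 1434 to 1488 in 4T1R1 and 1589 to 1638 in 4T1R2. The 10 markers of other cell types summed to 11.6 to 34.2 CPM, of which Pdgfra, a mesenchymal receptor, gave 10.8 to 33.5, and the highest of the others reached 0.614. Both sums moved with the groups, and their part in the results was not tested.

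The sequence around the annotated first transcribed base was compared with that of all genes. A run at the first base itself was planned, and a wider window was used instead. A run in it need not stand at the start. That of Rps3 begins 47 bases before the start and that of Rpl41 40 bases after it. The promoters are from RefSeq (GRCm38.p6), which held 58 of the 77 genes. From 50 bases before to 50 after the start on the coding strand, the longest run of C and T had a median of 10 bases in the 58 genes and of 7 bases over 27025 genes. A run of at least 8 bases stood in 82.8% of the 58 genes and in 39.3% of all genes. In the same window the letters CTTTCC occurred in 29.3% against 5.43%, and CTCTTTC in 19.0% against 1.62%. Over 300 bases and both strands, TTCCGG, the core that ETS factors bind, was present in 51.7% against 16.7%, and CCGGAAG, which overlaps its reverse complement, in 37.9% against 9.93%. Windows of 100 bases, of which the last 30 are transcribed, are shown for a paralog pair and 3 genes that the results turn on. Capitals mark the longest C and T run from 50 bases before to 50 after the start, so the first bases printed were not searched. Rpl22l1 and Rpl22 are the pair of which one fell by the most and the other did not. Rpl22 has more than 1 annotated start, and the window printed is that with the longer run. Its other window, at chr4:152324366-152324465, has a longest run of 5 bases. Rpl13a had the largest rise with 17-DMAG in 4T1, Rpl7l1 was the sole gene called lower there, and Rps28 had the largest fall in 4T1R1.
Rpl22l1 (chr3:28805438-28805537, plus strand): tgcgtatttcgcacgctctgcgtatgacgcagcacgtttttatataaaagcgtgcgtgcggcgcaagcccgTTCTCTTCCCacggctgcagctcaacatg
Rpl22 (chr4:152325656-152325755, plus strand): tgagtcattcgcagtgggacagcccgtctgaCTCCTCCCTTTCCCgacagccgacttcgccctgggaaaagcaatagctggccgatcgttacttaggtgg
Rpl13a (chr7:45128716-45128815, minus strand): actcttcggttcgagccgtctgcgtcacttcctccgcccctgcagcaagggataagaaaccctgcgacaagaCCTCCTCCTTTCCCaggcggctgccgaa
Rpl7l1 (chr17:46782627-46782726, minus strand): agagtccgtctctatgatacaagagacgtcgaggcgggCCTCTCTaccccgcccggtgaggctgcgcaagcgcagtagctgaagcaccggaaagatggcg
Rps28 (chr17:33824533-33824632, minus strand): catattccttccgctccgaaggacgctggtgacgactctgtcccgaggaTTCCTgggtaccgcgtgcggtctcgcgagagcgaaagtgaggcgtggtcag
The run of Rpl13a has 14 bases and begins 2 bases past its first transcribed base, and that of Rpl22l1 has 10 bases and begins 1 base past it. The marked runs of Rpl7l1 and Rps28 are 7 and 5 bases long and lie before the start. In Rps28 a longer run is printed further upstream, outside the part searched. These are matches of letters in a window and no measure of binding or of translation.

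The level of the 77 genes spanned a wide range. Levels are given as normalized counts, the counts after TMM scaling of the libraries, per 1000 bases of the principal GENCODE transcript. The annotated lengths ran from 383 to 5179 bases. Whether these cells use those transcripts was not tested, and a length that is too long gives a level that is too low. Rps15a, with the longest at 5179 bases, stood at 1967 in untreated 4T1. In untreated 4T1 the median was 15686 per 1000 bases. The highest level, 52829.6, was that of Rplp1, a protein of the acidic stalk that recruits elongation factors. Rpl7a followed at 33193 and Rps12 at 30394. At the low end stood Rps19bp1 at 889.8, which matches the symbol pattern but encodes a protein that binds RPS19 and is not part of the ribosome. Rpl7l1, a paralog of Rpl7 found in assembling ribosomes, was at 1569, Rpl29 at 1573, and Rpl22 at 3262, below its paralog Rpl22l1 at 4596. Ribosomal protein genes have many processed copies in the genome, and how reads with several matches were counted is not stated. A median of 43.6% of the 75-base windows of a member's transcript stood letter for letter in a transcript of another gene, with a range from 0 to 92.5% (Rpl5). The levels of Rpl5, at 92.5%, Rpl9, at 91.3%, and Rpl22l1, at 58.6%, are therefore uncertain. A level set against another gene's may be too low or too high.

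The floor was met with a wide margin. The lowest counts just inside it were 563 for Rpl22l1, 593 for Rps19bp1, 895 for Rpl29, 1612 for Rpl35a and 1748 for Rps27l. Just outside it were Rpl37rt at 80 to 248 counts, Rpl34 at 69 to 228, Rps27 at 57 to 201 and Rpl30 at 16 to 85. Rpl3l had 0 to 6 counts and Rps4l 0 to 2, and Rpl10l, Rpl26, Rpl39l and Rps27rt had no count in any library, so that up to 3 counts per library cannot be told from 0. Rps27, Rpl30, Rpl26 and Rpl34 are subunit proteins that every cell uses, and the share of their windows found in another gene was 98.5%, 71.8%, 48.9% and 30.6%. Whether their reads went to copies was not tested. All 77 genes passed the filter on low counts for the tests below, as did Rps27, Rpl30, Rpl34 and Rpl37rt.

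Together the 77 genes took 3.68% to 4.34% of the counts outside Rn45s. In untreated 4T1 the shares were 4.07%, 4.17% and 4.13%, and after 17-DMAG they were 4.29% and 4.31%. In 4T1R1 they were 3.99%, 3.83% and 3.91% untreated and 3.68%, 3.77% and 3.69% after 17-DMAG. In 4T1R2 they were 4.34%, 4.27% and 4.19% untreated and 4.28%, 4.21% and 4.31% after 17-DMAG. In this share the treated libraries lay above the untreated ones in 4T1 and below them in 4T1R1, and the groups overlapped in 4T1R2. With Rn45s kept in the total, the groups overlapped in 4T1 and 4T1R1 too. The 3 separate libraries per group then ran from 3.61% to 3.71% untreated and 3.68% to 3.73% treated in 4T1. In 4T1R1 they ran from 3.30% to 3.45% untreated and 3.31% to 3.33% treated. The 6 libraries of 4T1R1 were the lowest of all. In bulk RNA, a change in the amount of these mRNAs per cell and a change in all other RNA cannot be told apart.

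**Figure D1:**
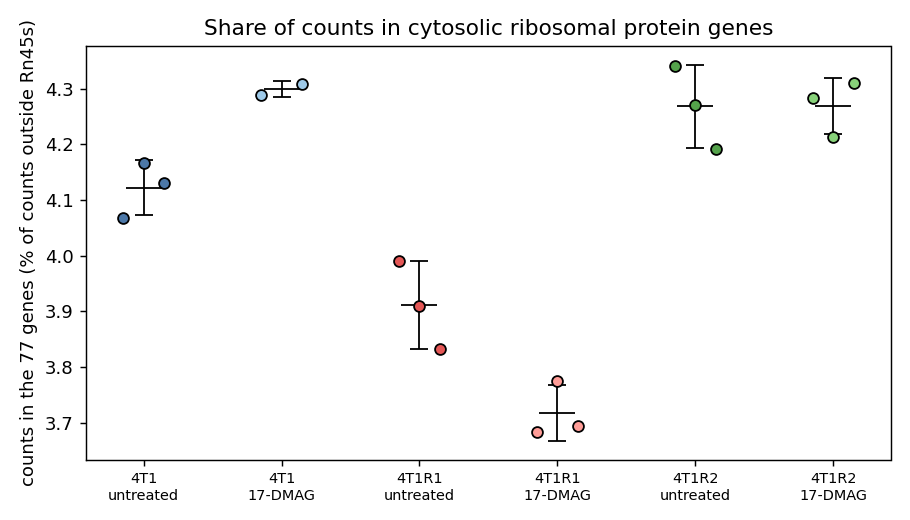
Share of counts in the 77 cytosolic ribosomal protein genes, in percent of counts outside Rn45s (vertical axis, which does not start at 0), for each library of the 6 groups (horizontal axis), with the mean and SD as bars. The 4T1R1 libraries sit between 3.68% and 3.99%, below all others, and the 17-DMAG-treated 4T1 libraries are at 4.29% and 4.31%.

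With 17-DMAG, most of the genes rose by a small step in 4T1 relative to the typical gene, a step whose median scaling by total counts alone reduced to 0.02. Of the 77 genes, 60 were called higher and 1 lower at a Benjamini-Hochberg adjusted p under 0.05 over 13507 genes in edgeR's quasi-likelihood test, while 18.4% of all genes tested were called higher and 17.9% lower. The median log2 fold change was 0.14, against 0.00 over all genes. Both subunits took part, with 31 of 46 large-subunit and 29 of 31 small-subunit genes higher. The largest rise was that of Rpl13a, which in other settings restrains translation of inflammatory mRNAs. Its normalized counts were 16992, 17877 and 17852 untreated and 20796 and 20666 treated. The groups did not overlap, and the log2 fold change was 0.24 ± 0.03 (SE, adjusted p = 6.71e-08 in edgeR's quasi-likelihood test), or 18.0%. Rps23, a protein of the decoding centre, went from 11663, 11830.3 and 11758 to 13607 and 13982, a log2 change of 0.23 ± 0.03. Rpl12, at the base of the stalk, went from 25136, 24976 and 25446 to 28879.6 and 29836, a log2 change of 0.22 ± 0.03. In each of these genes both treated values lay above every untreated one, yet no rise among the 77 reached 20%.

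The exceptions were few and mostly of the large subunit. Rpl7l1 was called lower, with 4021, 4189 and 4057 untreated against 3789 and 3699 treated, a log2 change of -0.13 ± 0.04 (adjusted p = 0.00827 in edgeR's quasi-likelihood test). Without replicate 3 of the treated group this value was -0.11 and the call was lost. Of the 16 genes not called, 14 were large-subunit genes, among them Rpl35a, Rpl21, Rpl36a, Rpl36al and Rpl39 with log2 changes from -0.03 to 0.00. The others were Rps28, at 0.08, and Rps19bp1, at 0.13.

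The size of this rise depended on how libraries were scaled. With total counts alone, the median of all genes moved to -0.11 in 4T1, and the 77 genes stood at 0.02, with 6 called higher and 7 lower beside 8.83% and 32.0% of all genes. Relative to the median of all genes, the 77 were higher by 0.14 under either scaling. A change of scaling shifts all genes alike, so this likeness is fixed in advance and does not test the rise. Rn45s took 10.7% to 11.4% of counts untreated and 13.2% to 14.1% treated in 4T1, and in 4T1R1 it went the other way, from 13.4% to 15.6% untreated to 9.54% to 12.2% treated. With Rn45s removed before the fit, 59 genes were called higher and 1 lower in 4T1, and 1 higher and 26 lower in 4T1R1.

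**Figure D2:**
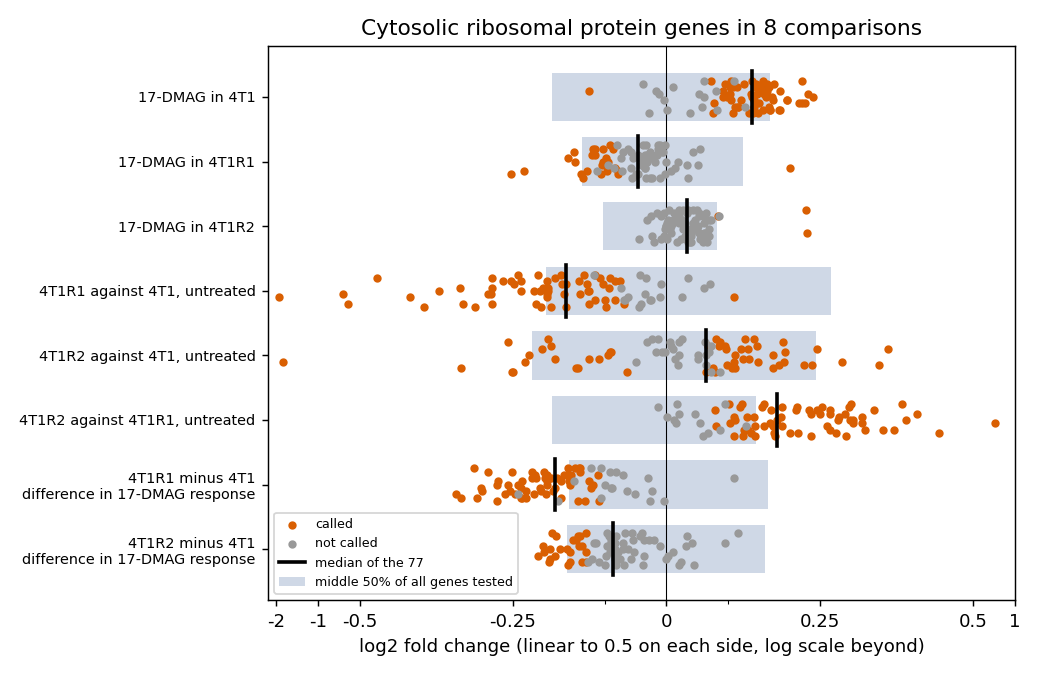
Log2 fold change of each of the 77 genes (points, orange where called by edgeR's quasi-likelihood test at an adjusted p under 0.05, grey otherwise) in 8 comparisons, with the median of the 77 (black line) and the middle 50% of all 13507 genes tested (blue bar). The horizontal axis is linear to 0.5 and logarithmic beyond. The median of the 77 runs from -0.18 to 0.18, and the isolated points near -1.9 and -1.8 are Rpl22l1.

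In 4T1R1 the direction was the opposite and the step smaller. Of the 77 genes, 25 were called lower and 1 higher with 17-DMAG, beside 14.3% and 13.9% of all genes, and the median log2 change was -0.05 against -0.01 over all genes. Without replicate 2 of treated 4T1R1 this median was -0.07. Rps28, a small-subunit protein near the mRNA exit, fell from 5637, 5369.8 and 5004 to 4425, 4495 and 4511, without overlap, a log2 change of -0.25 ± 0.04 (adjusted p = 3.08e-06 in edgeR's quasi-likelihood test) or -16.1%. Rpl41, the smallest ribosomal protein, fell from 15725, 17219 and 15000.3 to 13022, 13761 and 14051, a log2 change of -0.23 ± 0.04. Rpl36a fell from 3965, 3601 and 3622 to 3214, 3344 and 3453, a log2 change of -0.16 ± 0.04. The count of genes lower was 15 without replicate 1 of treated 4T1R1 and 16 without replicate 1 of untreated 4T1R1. With total counts alone, 10 genes were called lower and 3 higher, beside 9.74% and 17.4% of all genes.

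The fall in 4T1R1 went with annotated transcript length, which was not measured in these cells. Across the 77 genes, Spearman's rho between the length of the principal transcript and the log2 change in 4T1R1 was 0.42, while it was 0.17 for the response of 4T1 and 0.27 for that of 4T1R2. These correlations are over genes that share libraries and are given as a description. In 4T1R1 the 18 genes with transcripts of up to 600 bases had a median of -0.10, and the other 59 had -0.04. Genes outside the 77 showed a like difference there, with a median of -0.11 in 694 genes with transcripts of up to 1000 bases and 0.00 in 11399 longer ones. In 4T1 the short genes outside the 77 had a median of 0.01. The part of transcript length in the response of 4T1R1 was not tested.

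In 4T1R2 there was little change. With 17-DMAG, 3 of the 77 genes were called higher and 0 lower, beside 6.18% and 4.35% of all genes, with a median log2 change of 0.03 that became -0.013 with total counts alone. The 3 were Rpl22l1, Rpl29 and Rpl17. Rpl29 had 1096, 1167 and 1148 untreated and 1379.7, 1394 and 1215 treated, without overlap, a log2 change of 0.23 ± 0.06 (adjusted p = 0.00942 in edgeR's quasi-likelihood test). Rpl17, at the exit of the peptide tunnel, had a log2 change of 0.08 ± 0.03. Each of the 3 calls rested on single libraries. Without replicate 2 of treated 4T1R2 no gene was called, and the values were 0.18 for Rpl22l1, 0.19 for Rpl29 and 0.07 for Rpl17. The call of Rpl29 was also lost without replicate 1 of either 4T1R2 group (0.20 each), and that of Rpl17 without replicate 1 of the treated (0.09) or replicate 1 or 2 of the untreated group (0.08 each). Without replicate 1 of treated 4T1R2, 1 gene was called, and without replicate 2 of untreated 4T1R1, 6 were.

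The difference between the responses was tested directly. The response of 4T1R1 lay below that of 4T1 in 76 of the 77 genes and was called lower in 58 and higher in 0, beside 9.08% and 9.16% of all genes. The median difference was -0.18. It was largest in Rpl41 at -0.34 ± 0.05 (adjusted p = 6.05e-06 in edgeR's quasi-likelihood test) and in Rps28 at -0.34 ± 0.06. Of the 60 genes higher in 4T1, 18 were called lower in 4T1R1, which is 18 of the 25 called lower there, and 1 was called higher in both. With total counts alone, 10 genes were called lower and 2 higher in this difference, beside 3.10% and 26.2% of all genes, and the median of all genes moved to 0.15.

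The response of 4T1R2 also lay below that of 4T1, and both differences share the 4T1 libraries. It was called lower in 24 genes and higher in 0, beside 8.16% and 9.62% of all genes, with a median of -0.09. The largest differences were -0.21 ± 0.05 in Rps2, -0.20 ± 0.04 in Rps23 and -0.20 ± 0.05 in Rpl13. Rps2 went from 18131, 19921 and 19556 to 21908 and 22713 in 4T1 and from 24699, 22976 and 22558 to 23862, 22435 and 24291 in 4T1R2. Without replicate 3 of treated 4T1 the count of genes lower was 12. With total counts alone it was 4, with 1 higher, beside 4.67% and 15.5% of all genes.

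**Figure D3:**
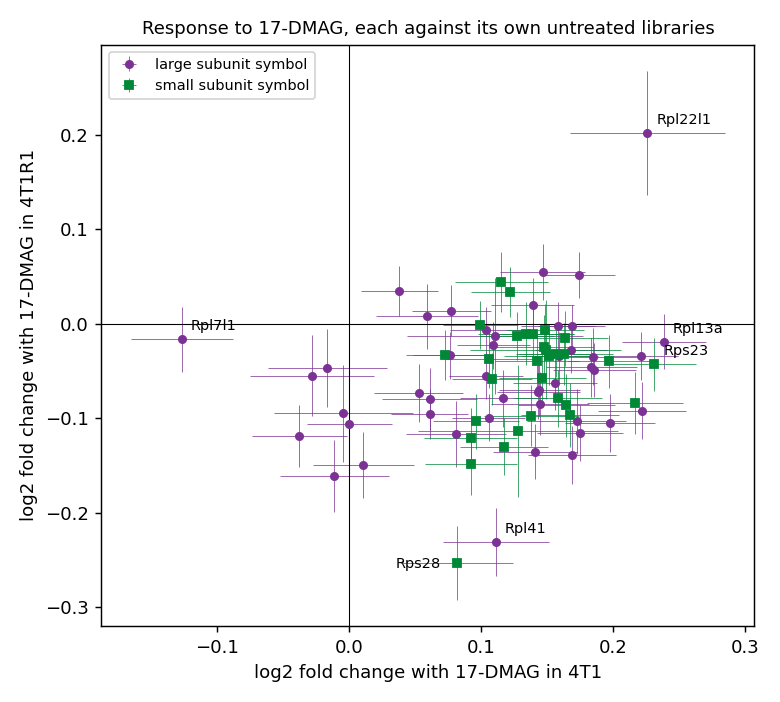
Log2 fold change with 17-DMAG in 4T1 (horizontal axis) and in 4T1R1 (vertical axis) for each of the 77 genes, each against the untreated libraries of its own population, with SE bars, large-subunit genes as circles and small-subunit genes as squares. Most points lie to the right of 0 and below 0. Rpl22l1 is the single gene called higher on both axes, and Rps28 and Rpl41 are lowest on the vertical axis.

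Without drug, Rpl22l1 set the selected populations apart from 4T1 more than any other of the 77 genes. RPL22L1 is a paralog that can take the place of RPL22 in the ribosome, and RPL22 is known to hold Rpl22l1 mRNA low. The gene lies at chr3:28805436-28807424 on the plus strand and codes for protein. Its normalized counts were 2518, 2535 and 2558 in untreated 4T1, 739.5, 604 and 659 in 4T1R1, and 732, 734 and 729 in 4T1R2. Every selected library lay far below every 4T1 library. The log2 fold change was -1.92 ± 0.06 in 4T1R1 (adjusted p = 1.88e-27 in edgeR's quasi-likelihood test) and -1.79 ± 0.06 in 4T1R2 (adjusted p = 2.88e-26), a level 3.80 and 3.47 times lower. Both comparisons share the untreated 4T1 libraries. Between 4T1R2 and 4T1R1 the change was 0.13 ± 0.07 (adjusted p = 0.12), which did not pass the threshold. Rpl22 itself had 6981, 6477 and 6614 in 4T1, 6907, 6266 and 6518 in 4T1R1 and 7051, 7208 and 7237 in 4T1R2. Its log2 change was -0.03 ± 0.03 in 4T1R1 (adjusted p = 0.53), and 0.10 ± 0.03 in 4T1R2 (adjusted p = 0.016), where the call was lost without replicate 2 or replicate 3 of untreated 4T1 (0.08 and 0.09) or without replicate 3 of 4T1R2 (0.09). With 17-DMAG, Rpl22l1 had 2870.3 and 3069 in 4T1, 790.0, 701 and 814 in 4T1R1, and 849.7, 913 and 806 in 4T1R2. The log2 changes were 0.23 ± 0.06, 0.20 ± 0.07 and 0.23 ± 0.06. The call in 4T1 was lost without treated replicate 3 (0.17). That in 4T1R1 was lost without treated replicate 1 or 3 (0.18 and 0.16) or untreated replicate 2 (0.14), and that in 4T1R2 without treated replicate 2 (0.18) or untreated replicate 1 (0.23). The difference between responses was -0.02 ± 0.09 for 4T1R1 and 0.00 ± 0.09 for 4T1R2 against 4T1.

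**Figure D4:**
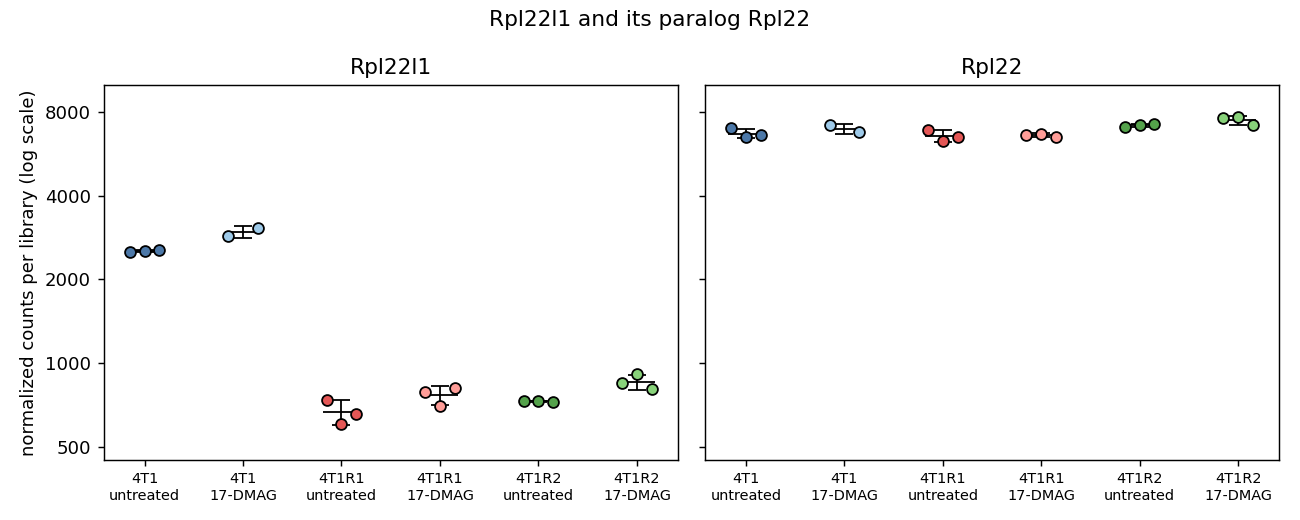
Normalized counts (log scale) of Rpl22l1 (left) and Rpl22 (right) in each library of the 6 groups, with mean and SD. Rpl22l1 is at 2518 to 3069 in 4T1 and at 604 to 913 in 4T1R1 and 4T1R2, while Rpl22 stays between 6266 and 7648 in all groups.

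Most of the other genes were somewhat lower in untreated 4T1R1 than in untreated 4T1. Of the 77, 58 were called lower and 1 higher, beside 27.5% and 25.2% of all genes, with a median log2 change of -0.16 against 0.01 over all genes. Lower were 36 of 46 large-subunit and 22 of 31 small-subunit genes. After Rpl22l1 the largest fall was that of Rpl35a, a large-subunit protein mutated in some cases of Diamond-Blackfan anaemia, from 3098, 3029 and 2834 to 2028, 1699.9 and 1927, a log2 change of -0.66 ± 0.05 (adjusted p = 5.71e-15 in edgeR's quasi-likelihood test) or -36.8%. Rpl21 fell from 11043, 11039.5 and 10724 to 7259, 7295 and 6930.0, a log2 change of -0.61 ± 0.03. Neither gene's groups overlapped. Rpl12 was the single gene called higher, from 25136, 24976 and 25446 to 27850.4, 26973 and 26773, a log2 change of 0.11 ± 0.03. The Rn45s share was also higher in untreated 4T1R1 (13.4% to 15.6%) than in untreated 4T1 (10.7% to 11.4%), and with Rn45s removed 57 genes were lower and 1 higher. The library names of the 2 populations form separate runs, so the effect of selection and that of the run cannot be told apart here.

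In untreated 4T1R2 the genes moved both ways. Of the 77, 34 were called higher and 19 lower than in 4T1, beside 25.6% and 26.9% of all genes, and the median log2 change was 0.06. Among large-subunit genes 18 were higher and 16 lower, and among small-subunit genes 16 were higher and 3 lower, a difference between subunits that was not tested. Rpl7l1 rose from 4021, 4189 and 4057 to 5493, 5209 and 5045, a log2 change of 0.36 ± 0.03 (adjusted p = 6.43e-12 in edgeR's quasi-likelihood test) or 28.5%. Rpl32 rose from 14121, 14234 and 14279 to 18643, 17835 and 17717, a log2 change of 0.35 ± 0.03. Rps2, at the mRNA entry of the small subunit, rose by 0.29 ± 0.03. Among those lower, after Rpl22l1, Rpl21 had 8802, 8764 and 8441, a log2 change of -0.33 ± 0.03. Rpl9 went from 18109, 18699 and 18537 to 15697, 15441 and 15154, a log2 change of -0.26 ± 0.03.

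Against each other, untreated 4T1R2 stood above 4T1R1 in 76 of the 77 genes. Called higher were 64 and lower 0, beside 19.7% and 19.0% of all genes, with a median log2 difference of 0.18 against -0.01 over all genes. Rpl35a was highest, with 3059, 3174 and 3056 in 4T1R2 against 2028, 1699.9 and 1927 in 4T1R1, a log2 difference of 0.71 ± 0.05 (adjusted p = 2.54e-15 in edgeR's quasi-likelihood test) or 64.0%. Rps28 followed at 0.44 ± 0.04 and Rps24, a small-subunit protein also mutated in Diamond-Blackfan anaemia, at 0.41 ± 0.03. The counts were 64 higher and 0 lower under RLE, upper-quartile and total-count scaling as well. This comparison also crosses the 2 runs of library names, and their parts cannot be told apart. The 18 genes with transcripts of up to 600 bases had a median difference of 0.30 and the other 59 had 0.16. Genes outside the 77 had 0.07 in 694 with transcripts of up to 1000 bases and -0.01 in the longer ones, and the part of length was not tested.

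**Figure D5:**
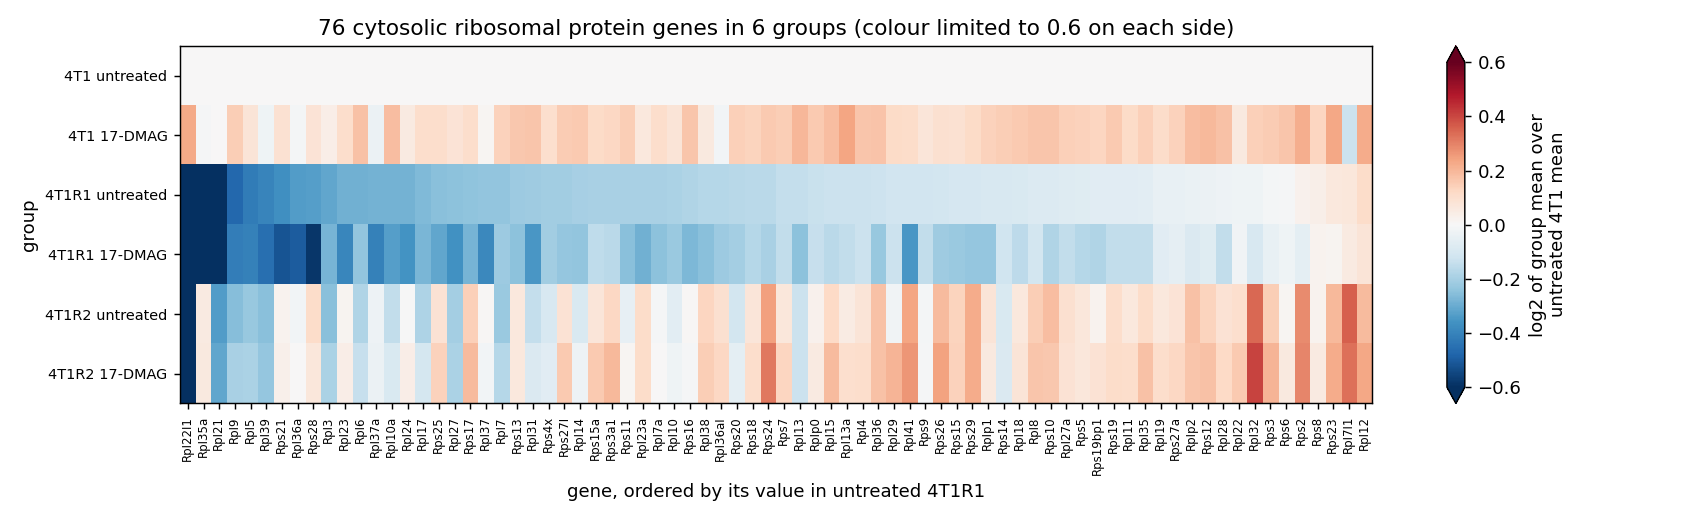
Log2 of each group's mean normalized count over that of untreated 4T1 for 76 of the 77 genes (columns, ordered by their value in untreated 4T1R1) in the 6 groups (rows), with red above and blue below untreated 4T1 and the colour limited to 0.6 on each side. The 4T1R1 rows are mostly blue, the treated 4T1 row is mostly red, and the 4T1R2 rows hold both, with Rpl22l1 dark blue in all 4 rows of selected cells.

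With 17-DMAG in 4T1 the stalk proteins followed the majority. Rplp0, the anchor of the stalk, rose with 17-DMAG in 4T1 from 34036, 34590.1 and 35248 to 38526 and 38732, a log2 change of 0.16 ± 0.03. Rplp1 and Rplp2 rose by 0.14 ± 0.03 and 0.18 ± 0.03. In 4T1R1 Rplp1 fell from 25289.8, 24304 and 24302 to 21589, 22749.9 and 22942, a log2 change of -0.14 ± 0.03, and Rplp0 and Rplp2 had 0.00 and -0.05, which did not pass. Against untreated 4T1, Rplp0 fell by 0.13 and Rplp1 by 0.10 in 4T1R1, where Rplp2 had -0.04 and did not pass. In 4T1R2 Rplp2 rose by 0.17.

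Rpl5 and Rpl11 join the 5S ribosomal RNA before it enters the ribosome. Rpl5 was lower in both selected populations, with 16569, 15849 and 16389.6 in 4T1, 12589.8, 11926 and 12010.3 in 4T1R1 and 13864, 13803 and 13960.2 in 4T1R2. The log2 changes were -0.42 ± 0.03 (adjusted p = 8.47e-17 in edgeR's quasi-likelihood test) and -0.23 ± 0.03 (adjusted p = 1.65e-09). Rpl11 had -0.07 ± 0.03 in 4T1R1 and 0.07 ± 0.03 in 4T1R2, neither past the threshold. The difference between Rpl5 and Rpl11 was not tested, and nearly all windows of Rpl5 stand in copies elsewhere. With 17-DMAG in 4T1, Rpl11 had 0.12 ± 0.03, a call lost without replicate 3 of treated 4T1 (0.10). In 4T1R1 it was called lower, at -0.08 ± 0.03, with overlap between the groups, a call lost without replicate 1 or 3 of the treated group (-0.07 each), replicate 1 or 2 of the untreated group (-0.07 and -0.05), or single libraries of the other populations. Rpl5 had 0.08 ± 0.03, a call lost without either treated sample (0.07 and 0.08) or without replicate 2 or 3 of untreated 4T1 (0.06 and 0.08), and -0.04 with total counts alone.

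Of the genes picked for known further roles, Rps6, Rps3, Rps27a and Rpl13a rose with 17-DMAG in 4T1 as most of the 77 genes did. Rpl22 had 0.06 ± 0.04 there, with overlap between the groups, and was not called. Rps6, the substrate of S6 kinase, rose by 0.16 ± 0.03 with 17-DMAG in 4T1 and had values from -0.02 to 0.05 in the other 5 comparisons between groups, none past the threshold. Rps3, also a DNA repair nuclease, rose by 0.15 ± 0.03 with 17-DMAG in 4T1 and was higher by 0.15 ± 0.03 in untreated 4T1R2 than in 4T1 and by 0.16 ± 0.03 than in 4T1R1. Rps27a, which is made as a fusion with ubiquitin, rose by 0.14 ± 0.03 with 17-DMAG in 4T1, and was higher in untreated 4T1R2 by 0.08 ± 0.03 than in 4T1 and by 0.12 ± 0.03 than in 4T1R1. Its call in 4T1R2 against 4T1 was lost without replicate 1 of untreated 4T1R2 (0.06) or replicate 2 of untreated 4T1 (0.07). The response of 4T1R1 was called lower than that of 4T1 in Rps6 (-0.18 ± 0.04), Rps3 (-0.19 ± 0.05) and Rps27a (-0.15 ± 0.04). The calls of Rps6 and Rps27a in this difference were lost without replicate 3 of treated 4T1 (-0.14 each).

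Among the other paralog pairs, Rpl7 and Rpl7l1 had values of opposite sign with 17-DMAG in 4T1 and in each untreated selected population against 4T1. Rpl7 rose with 17-DMAG in 4T1 by 0.14 ± 0.03 and fell in untreated 4T1R1 by 0.24 and in 4T1R2 by 0.22, where Rpl7l1 had 0.07 and 0.36. In untreated 4T1R2 against 4T1R1 both were above 0, Rpl7 at 0.01 ± 0.03, which did not pass, and Rpl7l1 at 0.29 ± 0.03. Rpl36a and Rpl36al were both lower in untreated 4T1R1, with log2 changes of -0.34 ± 0.04 and -0.17 ± 0.04. Rpl39, at the exit of the tunnel, was lower in 4T1R1 (log2 change -0.40 ± 0.04) and in 4T1R2 (-0.25 ± 0.04), and its testis-linked paralog Rpl39l had no count. Rps27l, a p53 target, was lower in 4T1R1 (log2 change -0.21 ± 0.05) and had 0.09 ± 0.05 in 4T1R2, which did not pass. Rps27, below the floor, had -0.33 ± 0.17 in 4T1R1, which did not pass. In 4T1R2 Rps27 had -0.73 ± 0.18 (adjusted p = 0.00088 in edgeR's quasi-likelihood test), at 64 to 129 normalized counts in untreated 4T1 and 4T1R2. Rpl3, Rpl10 and Rps4x were lower in 4T1R1, with log2 changes of -0.31, -0.19 and -0.21, and Rpl3l, Rpl10l and Rps4l were at or near 0. The differences within pairs were not tested.

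The symbols of some cytosolic ribosomal protein genes miss the pattern, and 3 of them are given here. With 17-DMAG in 4T1 all 3 were called higher, Rpsa by 0.20 ± 0.03, Fau by 0.19 ± 0.04 and Gnb2l1 (now named Rack1) by 0.18 ± 0.03. The response of 4T1R1 was below that of 4T1 in all 3, from -0.34 in Fau to -0.21 in Gnb2l1.

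Genes that serve ribosomes in other ways were counted from lists chosen with earlier results in view. Of 23 other genes of the TOP class tested, mostly translation factors, 15 were higher and 2 lower with 17-DMAG in 4T1 (median 0.13), beside 18.4% and 17.9% of all genes, and the largest rise was 0.40 ± 0.03 in Cct4, a subunit of the chaperonin that folds actin and tubulin. Of 86 assembly factors and subunits of RNA polymerase I, which makes the ribosomal RNA precursor, 37, 36 and 27 were higher with 17-DMAG in 4T1, 4T1R1 and 4T1R2, beside 18.4%, 13.9% and 6.18% of all genes, and 3, 6 and 0 were lower, beside 17.9%, 14.3% and 4.35%. The medians were 0.09, 0.09 and 0.08. In 4T1R1, where the 77 genes had a median of -0.05, Rrp1b and Nop56 rose by 0.26 ± 0.04 and 0.28 ± 0.03, and Nop10, a small protein of the RNA-guided pseudouridine-forming particles, had a log2 change of -0.28 ± 0.05. Of 77 mitochondrial ribosomal proteins, which translate mitochondrial mRNA, 20 were higher and 7 lower with 17-DMAG in 4T1 (median 0.08), beside the same 18.4% and 17.9%, and 7 were higher and 7 lower in 4T1R1.

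Without drug, 54 of the 86 assembly genes, 16 of the 23 TOP genes and 30 of the 77 mitochondrial genes were lower in 4T1R1 than in 4T1, beside 27.5% of all genes, and 7, 2 and 7 were higher, beside 25.2%. The medians were -0.17, -0.18 and -0.09. In 4T1R2 against 4T1R1, 55, 17 and 39 of them were higher, beside 19.7% of all genes, and 3, 1 and 2 lower, beside 19.0%, with medians of 0.14 in each list. Of 40 regulators of ribosome output tested, 16 were higher and 16 lower in untreated 4T1R1 than in 4T1, beside 25.2% and 27.5% of all genes. With 17-DMAG in 4T1, 17 were higher and 5 lower, beside 18.4% and 17.9% of all genes. Myc, which drives many ribosomal protein genes, was higher than in untreated 4T1 both in 4T1R1 (log2 change 0.27 ± 0.03), where most of the 77 genes were lower, and in 4T1R2 (0.84 ± 0.03), and 4T1R2 stood above 4T1R1 by 0.57 ± 0.03. With 17-DMAG it rose by 0.50 ± 0.04 in 4T1 and by 0.22 ± 0.03 in 4T1R1, and had 0.05 ± 0.03 in 4T1R2, which did not pass. The part of Myc in the levels of the 77 genes was not tested. Ddit4 and Sesn2, which restrain mTOR, were higher in both untreated selected populations, Ddit4 by 0.69 ± 0.08 in 4T1R1 and 1.40 ± 0.08 in 4T1R2 and Sesn2 by 1.25 ± 0.11 and 0.86 ± 0.12. With 17-DMAG in 4T1, Sesn2 rose by 1.66 ± 0.12 and Eif4ebp1, the translation inhibitor that mTOR switches off, by 1.42 ± 0.05. The response of 4T1R1 was lower than that of 4T1 in both, at -1.53 ± 0.16 and -1.28 ± 0.07. That of 4T1R2 was lower too, at -1.58 ± 0.16 and -1.31 ± 0.07. The 11 snoRNA host genes tested are TOP genes that code for no protein. Of them, 6 were lower and 2 higher in untreated 4T1R1 than in 4T1, beside 27.5% and 25.2% of all genes. In untreated 4T1R2, 7 were lower and 1 higher than in 4T1, beside 26.9% and 25.6% of all genes. Gas5 was lower in 4T1R1 (log2 change -0.43 ± 0.03) and in 4T1R2 (-0.37 ± 0.03).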

How the data were processed

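The authors depleted ribosomal RNA, made stranded libraries, aligned reads to mm10/GRCm38 with STAR and counted them with featureCounts of Subread 1.6.2. They deposited whole-number counts per gene symbol, without normalization. The STAR version, strand setting and treatment of reads with several matches or of pairs are not given in the sources used here. Among counts from 1 to 12, 65.6% to 70.8% were even per library, so the mates of a pair appear to have been counted separately. Precision is limited by the replicate spread, with a common biological coefficient of variation of 0.0376.

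Counts were fitted with edgeR 4.0.16 in R 4.3.3 over all 6 groups, after filterByExpr and TMM scaling, with quasi-likelihood tests and Benjamini-Hochberg adjustment over 13507 genes at a threshold of 0.05. Alternatives were other scalings, filters, DESeq2 1.42.0, each library left out, 18 separate libraries, and other member rules. The code was tested on simulated data. Genes named were the 3 largest called rises and falls without overlap per comparison, stalk and 5S proteins, 5 genes of known roles, paralog pairs, rows at the floor, and up to 4 per further list; the length classes were chosen after seeing the data. The members and lists were chosen with earlier results of these data known. Positions and lengths are from GENCODE vM21 (GRCm38) and promoters from RefSeq. Figures used matplotlib 3.10.9 in Python 3.11.15. A few results are withheld and not reported here.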

Additional observations from a re-analysis of the deposited data

Results flagged for a closer look

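The difference between the 17-DMAG responses of 2 populations passed its own test, an interaction contrast in edgeR's quasi-likelihood test, in many of the 77 genes. Against 4T1, the response was lower in 58 genes in 4T1R1 and in 24 in 4T1R2, beside 9.08% and 8.16% of all genes. With total counts alone these counts were 10 and 4, beside 3.10% and 4.67%. The genes with the largest differences in 4T1R1 were Rpl41 (-0.34 on the log2 scale) and Rps28 (-0.34). In 4T1R2 they were Rps2 (-0.21), Rps23 (-0.20) and Rpl13 (-0.20).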

How the results depend on the processing

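With total counts alone, the genes called higher and lower were 6 and 7 for 17-DMAG in 4T1, 3 and 10 in 4T1R1, and 2 and 10 and 1 and 4 in the differences of 4T1R1 and 4T1R2 from 4T1. For 17-DMAG in 4T1R2 it called 1 gene higher, and its median was -0.0127. In untreated 4T1R1 it called 3 genes higher than in 4T1. Under it the values of Rpl10 (-0.0393), Rpl5 (-0.0384) and Rps4x (-0.0165) with 17-DMAG in 4T1, and of Rpl10 (0.0391) and Rpl7 (0.0295) in the difference of 4T1R1 from 4T1, turned sign. The median of all genes moved with it. A change of scaling shifts all genes alike, so the 77 genes stood at 0.14 above that median in 4T1 under every scaling by construction. Which scaling is nearer the true amounts was not tested. Upper-quartile scaling called 4 genes higher in untreated 4T1R1, and DESeq2, a minimum of 10 counts in every library and the corrected list each called 2. For 17-DMAG in 4T1R2 no filter and only the groups compared each called 5 higher, and a floor of 1000 counts called 1. For 17-DMAG in 4T1R1 only the groups compared and the floor of 1000 counts called 0 higher. The cause was not tested.

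A minimum change of 0.25 on the log2 scale left 0 genes higher and 0 lower for 17-DMAG in 4T1, 0 and 1 in 4T1R1, and 0 higher in 4T1R2. It left 0 higher and 17 lower in untreated 4T1R1, 3 and 5 in 4T1R2, 26 higher in 4T1R2 against 4T1R1, and 14 and 0 lower in the 2 differences of response.

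With 1 library left out, genes higher ranged from 45 to 60, 0 to 2 and 0 to 6 for 17-DMAG in 4T1, 4T1R1 and 4T1R2, and genes lower from 0 to 1, 15 to 28 and 0 to 0. Untreated 4T1R1 had 1 to 2 higher and 51 to 59 lower, 4T1R2 had 27 to 39 and 16 to 19, and 4T1R2 against 4T1R1 had 63 to 67 higher. The differences had 44 to 64 and 12 to 29 lower. A group left with 1 sample was assumed to vary like the others. Of 114 named results, 64 kept direction and call under every alternative run on single genes. The minimum change, the floors and the corrected list were not run on single genes.

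The replicate numbers did not pair the libraries, since deviations of same-numbered libraries correlated at -0.09 to 0.19 and 1 of 18 pairs exceeded 0.1. With the replicate number as a block, in a fit that counts the near-identical treated 4T1 libraries as 2 samples, 59 genes were higher for 17-DMAG in 4T1, 26 lower in 4T1R1, and 59 and 25 lower in the 2 differences. The block moved no count by more than 1.5 times. At n = 2 or 3 and changes under 20%, calls rest on the shared estimate of spread.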
